A study of Mus musculus with 12 samples.

Results

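The brain of mice kept for 18 h at 4 °C after death was compared with the brain of mice sampled just after death (0 h), by the 4 arrays of these conditions among the 12 arrays of the series. The members were taken by their labels, with all non-control probe sets, and the difference was taken within each of 2 preservations. All mice were male BALB/c of 10 weeks. Fresh-frozen (FF) tissue was immersed in RNAlater and its RNA was amplified from the 3' end by in vitro transcription, while RNA of formalin-fixed, paraffin-embedded (FFPE) tissue went through a whole-transcript kit designed for degraded RNA. The 18 h condition was set up to resemble a human autopsy. A further pair of brain arrays came from mice kept for 3 h at room temperature after death, and the liver was sampled under the same conditions. Each condition had 1 array, and the number of animals, whether arrays share an animal and the brain region are not given in the sources used here. Preservation and labelling kit changed together, and so did time and storage temperature, so their effects cannot be told apart. Values are log2 intensities, in which a step of 1 is a 2-fold difference. Because 1 array stood for each condition, a difference was read as shared only where FF and FFPE gave the same sign.

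The arrays labelled brain carried neuronal RNA, and the 0 h arrays stood apart from the other brain arrays. All 15 pan-neuronal markers tested, among them the synaptic fusion protein Snap25, were at or above the array median in each of the 6 brain arrays. Their summed linear intensity was 23605.9 in FF brain at 18 h, against 23572.0 at 0 h, and 17989.2 in FFPE brain at 18 h, against 17451.1 at 0 h. The 0 h brain arrays read higher for many hepatocyte transcripts, and lower for Ttr, than the 18 h and 3 h brain arrays of the same preservation. Every difference from 0 h rests on those arrays, and each FF or FFPE difference rests on the 0 h array of its own preservation alone. For the genes that passed the test, the 3 h values and the difference without each 0 h array are given. A fit without a 0 h array keeps 1 array at 0 h, so it cannot show that the 0 h value repeats. The 3' control probe set of Gapdh exceeded its 5' one by 0.05 (log2) in FF brain at 18 h, against -0.02 at 0 h, and by 1.22 in FFPE brain at either time. For Actb this gap was 1.32 in FF brain at 18 h, against 1.21 at 0 h. In FFPE brain the Actb gap was -0.1 at 18 h, against -0.12 at 0 h. In bulk tissue, fewer cells of a type and less RNA per cell cannot be told apart.

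The brain holds other tissues beside neurons and glia. The choroid plexus, a secretory epithelium of the ventricles, makes cerebrospinal fluid and is the main source of transthyretin (Ttr), a carrier of thyroxine and retinol, in the brain. Hepatocytes make transthyretin too, together with albumin, apolipoproteins and the major urinary proteins, which carry pheromones in mouse urine. After death, oxygen and energy run out, and mRNA is degraded by nucleases whose activity is lower in the cold.

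At 18 h against 0 h, 4 genes passed the test, 1 higher and 3 lower. Ttr rose by 4.895 ± 0.466 on the log2 scale (SE, limma, 2 arrays per time), a 29.8-fold difference, and the hepatocyte genes Mup3, Mup5 and Apoa1 fell. The 4 genes were 0.0306% of the 13073 tested, the 1 higher gene 0.00765% and the 3 lower genes 0.0229%, at an adjusted p under 0.05 by limma with Benjamini-Hochberg adjustment. At an unadjusted p under 0.05, 494 genes (3.78%) passed.

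Ttr read 12.21 in FF and 12.03 in FFPE brain at 18 h, against 8.68 in FF and 5.77 in FFPE brain at 0 h. Both 18 h arrays lay above both 0 h arrays, by 11.6-fold in FF and 76.6-fold in FFPE (adjusted p = 0.00102, limma). The 3 h arrays read 12.72 in FF and 12.52 in FFPE, close to the 18 h arrays, and the 18 h minus 3 h difference of -0.5 did not pass the test (adjusted p = 0.995, limma). A second Ttr probe set read 11.26 and 11.45 at 18 h, against 7.15 and 6.93 at 0 h, in FF and FFPE. In a fit of all 29688 probe sets its difference was 4.315 ± 0.144 (adjusted p = 4.71e-08, limma), so both Ttr probe sets had the same direction in both preservations. In the liver, Ttr read 12.70 in FF and 12.53 in FFPE at 18 h, against 12.64 and 12.66 at 0 h. The call was lost without the FFPE 18 h array, where the difference was 4.208. The difference was 6.255 without the FF 0 h array and 3.535 without the FFPE 0 h array, each with 1 array left at 0 h.

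Mup3, a major urinary protein, read 5.98 in FF and 3.39 in FFPE brain at 18 h, against 9.56 and 7.12 at 0 h. It was lower at 18 h by 12-fold in FF and 13.3-fold in FFPE, a difference of -3.655 ± 0.173 (adjusted p = 5.57e-07, limma). The 3 h arrays read 6.75 in FF and 3.56 in FFPE. Mup3 stayed past the threshold without either 3 h brain array and without any 1 of the liver arrays. Its difference was -3.88 without the FF 0 h array and -3.43 without the FFPE 0 h array, each with 1 array left at 0 h. Its probe set is of a kind that can bind several family members, and the Mup genes are near-identical copies, so which of them gave the signal is uncertain.

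Apoa1, the main protein of high-density lipoprotein, read 4.63 in FF and 5.59 in FFPE brain at 18 h, against 6.91 and 6.79 at 0 h. The difference was -1.74 ± 0.205 (adjusted p = 0.00729, limma). The FF and FFPE 3 h arrays read 4.78 and 5.41, on the 18 h side. The call was lost without the FF 0 h or the FF 18 h array, where the difference was -1.282 and -1.388. Without the FFPE 0 h array the difference was -2.198, and the FF pair had the wider gap. The other Apoa1 probe set read 4.07 and 4.96 at 18 h, against 6.66 and 5.95 at 0 h (-1.79 ± 0.29, adjusted p = 0.118, limma).

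Mup5, a further major urinary protein, read 4.52 in FF and 3.65 in FFPE brain at 18 h, against 6.10 and 5.54 at 0 h, and 4.31 and 3.88 at 3 h. Its difference of -1.735 ± 0.25 only just passed (adjusted p = 0.0425, limma), and the call was lost without any one of the 6 brain arrays or either 3 h liver array. The difference was -1.78 without the FF 0 h array and -1.69 without the FFPE 0 h array. It also missed the threshold under quantile normalization (0.056), with every probe set fitted (0.0623), without the filter (0.29) and with robust eBayes (0.057). The number of genes called depended on single arrays. It was 3 or 4 without 1 liver array or 1 of the 3 h brain arrays. Fits without a 0 h or 18 h brain array keep 1 array at that time, and their counts, which differed, are no test of a repeat.

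**Figure D1:**
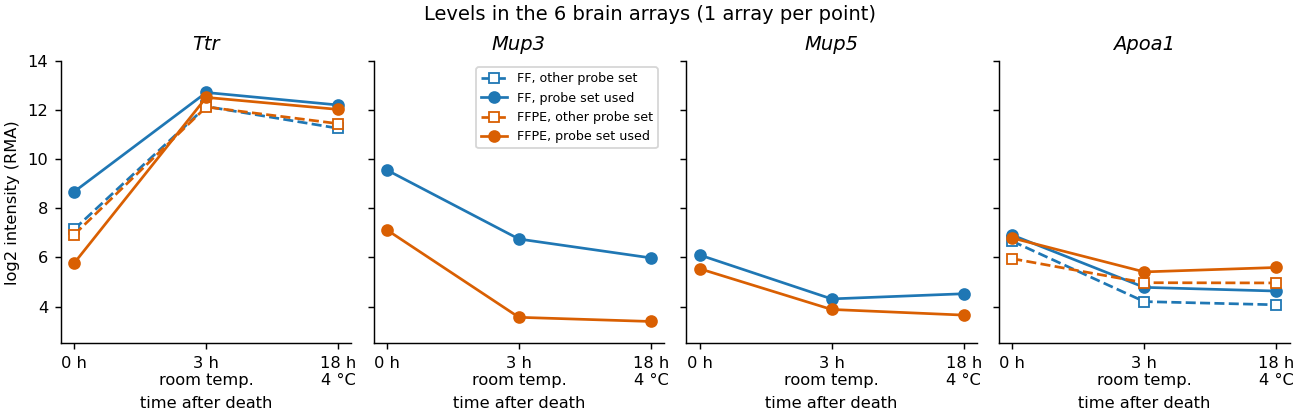
Log2 intensity of Ttr, Mup3, Mup5 and Apoa1 in brain at 0, 3 and 18 h after death, 1 array per point, in FF and FFPE; solid lines are the probe set used and dashed lines the gene's other probe set. Ttr lay at 12.21 and 12.03 at 18 h and at 8.68 and 5.77 at 0 h, and the other 3 genes lay lower at 18 h than at 0 h in both preservations.

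The promoters of 5 hepatocyte genes whose values were lower in the 18 h brain in both preservations are shown because the genes share an expression site, the liver. Each line gives the 250 bases before the transcription start from RefSeq, build GRCm38.p6, 5′ to 3′ on the gene's strand, and capitals mark the core letters bound by the liver factor HNF1 (GTTAAT, or ATTAAC on the other strand). The windows are chr4:62087318-62087567 for Mup3 (minus strand), chr9:46228380-46228629 for Apoa1 (plus), chr5:90460620-90460869 for Alb (plus), chr6:71199629-71199878 for Fabp1 (plus) and chr12:103738190-103738439 for Serpina1b (minus).
Mup3: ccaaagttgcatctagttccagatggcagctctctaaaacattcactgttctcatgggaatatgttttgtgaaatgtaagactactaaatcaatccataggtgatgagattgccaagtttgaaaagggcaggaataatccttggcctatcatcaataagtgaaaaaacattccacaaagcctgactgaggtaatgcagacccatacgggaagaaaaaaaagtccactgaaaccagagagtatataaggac
Apoa1: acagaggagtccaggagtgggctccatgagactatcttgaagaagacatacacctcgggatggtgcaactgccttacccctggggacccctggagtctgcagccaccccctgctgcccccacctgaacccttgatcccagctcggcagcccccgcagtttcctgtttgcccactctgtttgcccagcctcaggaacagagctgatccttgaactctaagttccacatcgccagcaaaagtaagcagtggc
Alb: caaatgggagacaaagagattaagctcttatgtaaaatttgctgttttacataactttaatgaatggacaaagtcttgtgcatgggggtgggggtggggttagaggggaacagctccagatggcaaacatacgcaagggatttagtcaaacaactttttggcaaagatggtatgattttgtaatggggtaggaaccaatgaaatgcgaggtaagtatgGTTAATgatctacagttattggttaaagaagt
Fabp1: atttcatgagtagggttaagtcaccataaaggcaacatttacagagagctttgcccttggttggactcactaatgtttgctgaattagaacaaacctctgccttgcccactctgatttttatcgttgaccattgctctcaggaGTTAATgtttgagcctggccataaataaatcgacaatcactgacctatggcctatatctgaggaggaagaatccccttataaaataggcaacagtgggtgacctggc
Serpina1b: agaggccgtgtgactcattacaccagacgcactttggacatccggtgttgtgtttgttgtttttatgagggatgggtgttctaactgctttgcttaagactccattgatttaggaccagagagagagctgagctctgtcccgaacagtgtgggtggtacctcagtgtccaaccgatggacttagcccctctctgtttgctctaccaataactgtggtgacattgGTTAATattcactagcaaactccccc
The motif began 32 bases before the start in Alb, 107 in Fabp1 and 26 in Serpina1b. These letters were in 11 of the 29 hepatocyte genes with a window (37.9%) and in 2023 of all 27025 genes with one (7.49%), and they were not in the Mup3 or Apoa1 windows. A match of letters is a description and no measure of binding.

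Hepatocyte transcripts were lower in the 18 h brain as a group. Of the 32 hepatocyte genes on the array other than Ttr, 25 were lower at 18 h in both preservations (78.1%) and 0 were higher in both. Their median difference was -1.315 in FF and -0.305 in FFPE, while the median of all 17097 genes was 0.01 in each and 23.8% of all genes were lower in both. The list was described by counts alone, and only Apoa1 of these genes passed the test; Trf, which oligodendrocytes also make, differed by -0.01 and 0.04.

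Albumin (Alb), the main plasma protein, read 5.53 in FF and 7.06 in FFPE brain at 18 h, against 8.74 and 7.57 at 0 h (adjusted p = 0.622, limma). Fabp1, the fatty acid carrier of liver, read 3.78 and 3.93 at 18 h, against 6.86 and 5.15 at 0 h (-2.15 ± 0.324, adjusted p = 0.0541, limma). In brain, Fabp1 reached the array median at 0 h alone, so it too was tested through the liver arrays. Serpina1b, an inhibitor of neutrophil elastase, read 4.51 and 3.99 at 18 h, against 7.83 and 5.13 at 0 h (-2.23 ± 0.356, adjusted p = 0.0781, limma). For each of these genes the 18 h array lay below the 0 h array of its preservation, with the wider gap in FF. At 3 h, Alb read 6.11 and 7.03, Fabp1 4.08 and 4.12, and Serpina1b 4.79 and 3.89. Without the FFPE 0 h array the difference was -3.052 for Fabp1 and -3.225 for Serpina1b. Without the FF 0 h array it was -1.248 and -1.235, and either fit keeps 1 array at 0 h. Cyp3a11, a drug-metabolising cytochrome P450, showed how unequal the preservations could be, at 4.11 in FF at 18 h against 7.74 at 0 h, and 3.65 in FFPE at 18 h against 4.03 at 0 h.

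Without Ttr, the 31 hepatocyte genes tested summed to a linear intensity of 1398.2 in FF brain at 18 h, against 4039.7 at 0 h, and 1095.7 in FFPE brain at 18 h, against 1406.3 at 0 h. The 3 h sums were 1553.2 in FF and 1156.8 in FFPE. Of these 31 genes, 11 were at or above the array median in FF brain at 18 h, against 26 at 0 h, and 11 in FFPE brain at 18 h, against 17 at 0 h. The 0 h arrays therefore held the higher hepatocyte signal in both preservations, and the part of liver RNA in them was not tested.

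**Figure D2:**
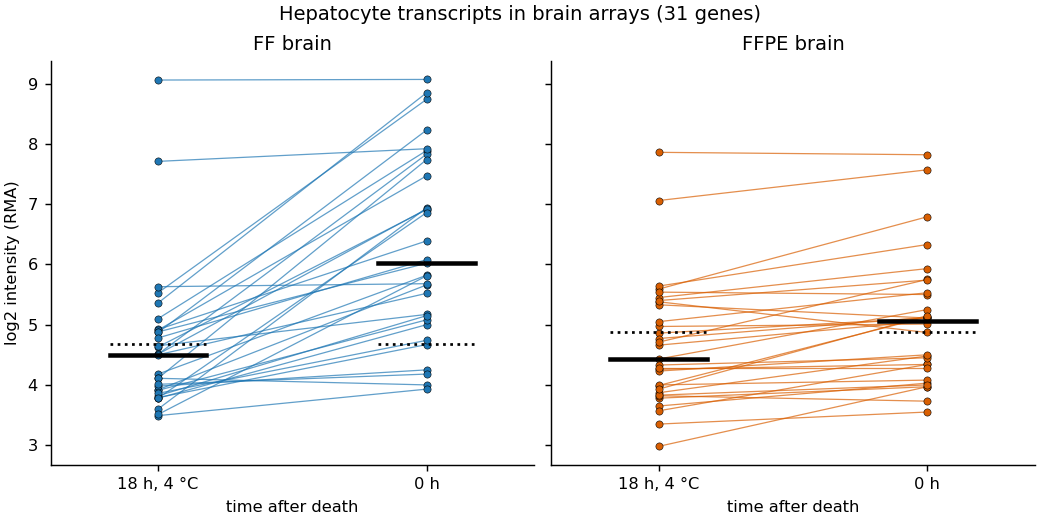
Log2 intensity of the 31 hepatocyte genes other than Ttr in each brain array, 18 h left of 0 h; each point is 1 gene, thick bars are medians over genes and dotted lines the array median. The FF medians were 4.5 at 18 h and 6.02 at 0 h, and the FFPE medians 4.43 at 18 h and 5.06 at 0 h.

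Beyond single genes, FF and FFPE shared few large differences. By fold alone, 50 genes were at least 2-fold apart in FF (0.382%), 7 higher at 18 h (0.0535%) and 43 lower (0.329%). In FFPE brain 18 did (0.138%), 4 higher (0.0306%) and 14 lower (0.107%). With 1 array on each side these counts have no test. The lists shared 6 lower genes, 14% of the FF and 42.9% of the FFPE list, and 1 higher gene, Ttr, 14.3% of the FF and 25.0% of the FFPE list.

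At least 1.5-fold in the same direction in both preservations were 18 genes (0.138%), 2 higher (0.0153%) and 16 lower (0.122%). Of the 16 lower genes, 11 were at least 4-fold higher in liver than in brain in both preservations. So were 39 of the 43 lower in FF, 6 of the 14 lower in FFPE, and 798 of all 13073 genes tested. The other 5 of the 16 shared lower genes were Strip2, Cartpt, Nts, Tac1 and Prtg. Strip2 read 7.95 in FF and 4.92 in FFPE brain at 18 h, against 8.65 and 5.81 at 0 h (adjusted p = 0.159, limma). Prtg, protogenin, a cell-surface protein of the embryonic nervous system, read 4.35 and 4.24 at 18 h, against 4.99 and 5.33 at 0 h, and 2 further probe sets of the gene differed by -0.23 to -0.06. The 2 higher genes were Ttr and Ubxn11, which read 5.58 and 6.06 at 18 h, against 4.8 and 5.4 at 0 h (adjusted p = 0.95, limma). The other Ubxn11 probe sets did not share a sign, at 0.15 in FF and -0.16 in FFPE for the brighter one and 0.13 and -0.2 for the dimmer one. With no size asked, 6832 genes had the same sign in both (52.3%), 3790 higher (29.0%) and 3042 lower (23.3%). Across genes, which are no independent replicates, the FF and FFPE differences had r = 0.185 over 13073 genes, 0.443 over the 798 liver-high genes and 0.133 over the other 12275.

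**Figure D3:**
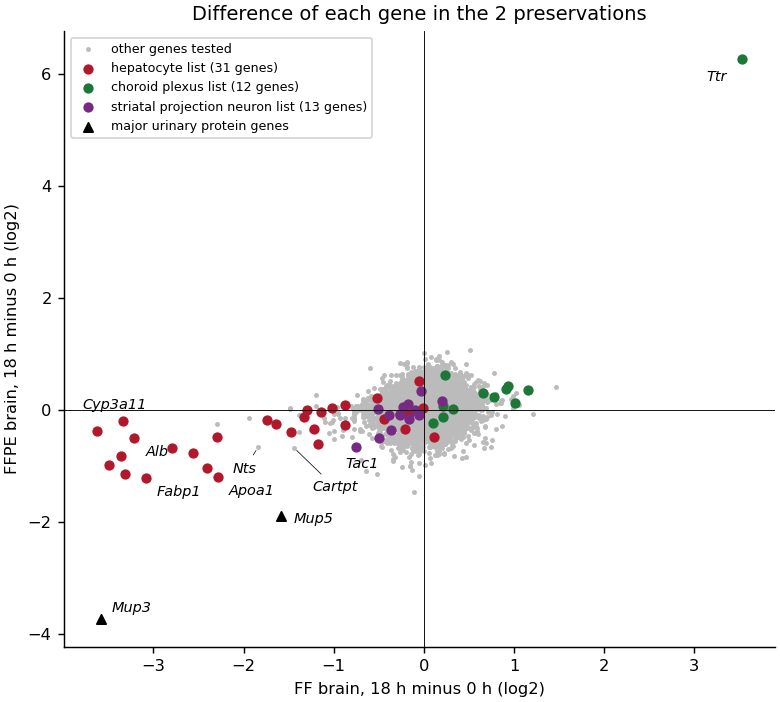
Difference in log2 intensity, 18 h minus 0 h, in FF brain (x axis) and FFPE brain (y axis), 1 point per gene tested, with listed genes in colour. Ttr lay at 3.53 and 6.26, Mup3 at -3.58 and -3.73, and most of the 13073 genes lay near 0 on both axes.

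Choroid plexus genes other than Ttr were mostly higher at 18 h than at 0 h, and none passed the test. Of the 16 on the array, 13 were higher in both preservations (81.2%, against 27.7% of all genes) and 0 were lower in both. Their median difference was 0.555 in FF and 0.09 in FFPE. Sostdc1, a secreted inhibitor of BMP and Wnt signalling, read 4.56 in FF and 5.17 in FFPE brain at 18 h, against 3.41 and 4.81 at 0 h. Its other probe set differed by 1.16 and 0.61 (adjusted p = 0.214, limma, all probe sets). Folr1, a folate receptor, read 5.25 and 4.55 at 18 h, against 4.24 and 4.43 at 0 h, and with Sostdc1 it was among the 7 genes at least 2-fold higher in FF. Igf2, a growth factor made by choroid plexus and meninges, read 7.51 in FF and 6.31 in FFPE brain at 18 h, against 6.60 and 5.94 at 0 h (adjusted p = 0.799, limma). Cldn2, a tight junction protein, read 4.71 and 3.92 at 18 h, against 3.78 and 3.49 at 0 h. Kcnj13, a potassium channel, read 5.60 and 4.79 at 18 h, against 4.94 and 4.49 at 0 h, and 7.05 and 4.93 at 3 h. For these 5 genes the 18 h array was the higher of each pair, by at most 1.15 on the log2 scale, and for Ttr by 3.53 and 6.26. The second Igf2 probe set differed by 0.06 and 0.41. Kcne2, a potassium channel subunit that was too dim to be tested, read 4.16 and 4.73 at 18 h, against 3.23 and 4.66 at 0 h. How far dissection set the amount of choroid plexus in each array was not tested.

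Several neuropeptide genes were among the shared lower genes, without passing the test. Nts (neurotensin) read 4.71 in FF and 4.22 in FFPE brain at 18 h, against 6.55 and 4.89 at 0 h (-1.255 ± 0.223, adjusted p = 0.159, limma). Cartpt, the precursor of an appetite-related peptide, read 5.02 and 3.99 at 18 h, against 6.46 and 4.67 at 0 h (-1.06 ± 0.19, adjusted p = 0.159, limma). Tac1, the precursor of substance P, read 9.56 and 8.48 at 18 h, against 10.31 and 9.14 at 0 h (-0.705 ± 0.171, adjusted p = 0.698, limma). In each case the 18 h array was below the 0 h array of its preservation, but the second, dimmer Tac1 probe set differed by 0.16 and 0.05. At 3 h, Nts read 5.36 and 4.68, Cartpt 5.12 and 4.24, and Tac1 9.47 and 7.71. Without the FFPE 0 h array the difference was -1.793 for Nts and -1.478 for Cartpt. Without the FF 0 h array it was -0.718 and -0.642, and either fit keeps 1 array at 0 h. Of 12 hypothalamic neuropeptide genes on the array, 7 were lower in both preservations (58.3%) and 2 higher (16.7%). Of the 9 bright enough to be tested, 5 were lower in both and 1 higher. Of 13 genes of striatal projection neurons 8 were lower in both (61.5%) and 1 higher (7.69%). Of all genes on the array, 23.8% were lower and 27.7% higher in both. The dopamine receptor gene Drd1 read 7.63 and 6.08 at 18 h, against 8.0 and 6.44 at 0 h, and Pdyn, a dynorphin precursor, was lower by 0.5 in each. Striatal medians were -0.23 in FF and -0.09 in FFPE. With both preservations together, the striatal median was -0.26 for 3 h minus 0 h and 0.23 for 18 h minus 3 h. At 3 h, Drd1 read 7.37 in FF and 5.54 in FFPE, and Pdyn 4.97 and 5.71. As these genes mark regions, differences in the dissected region move with them, and their part was not tested.

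Among oligodendrocyte, astrocyte, microglial and red cell genes, more were higher than lower in both preservations, with none called, beside 27.7% higher and 23.8% lower of all genes. Of 19 oligodendrocyte genes, 10 were higher in both preservations and 3 lower, of 17 astrocyte genes 9 and 1, of 16 microglial genes 9 and 0, and of 7 erythroid genes 5 and 0. Of 6 genes of oligodendrocyte precursors, 0 were higher in both and 2 lower. Some other lists leaned to higher values too. Of 14 thalamic neuron genes 8 were higher in both and 1 lower, of 15 endothelial genes 6 and 0, and of 26 glutamate and GABA receptor genes 11 and 3. The median of the 18 oligodendrocyte genes tested was 0.4 for 3 h minus 0 h and -0.277 for 18 h minus 3 h. Mbp, the myelin basic protein, read 12.08 in FF and 11.15 in FFPE brain at 18 h, against 11.71 and 10.52 at 0 h (0.5 ± 0.183, adjusted p = 0.995, limma). P2ry12, a purinergic receptor of microglia, read 6.24 and 4.88 at 18 h, against 5.68 and 4.41 at 0 h. Hba-a1, an alpha globin, read 12.04 and 9.82 at 18 h, against 11.78 and 8.78 at 0 h. Each of these genes was higher in the 18 h array of both preservations, by 0.26 to 1.04 on the log2 scale. Nrgn, a calmodulin-binding protein of excitatory synapses, was among the larger shared differences. It read 9.29 and 9.01 at 18 h, against 8.82 and 8.19 at 0 h (adjusted p = 0.611, limma). Of the 17 cortical and hippocampal excitatory neuron genes on the array, Nrgn among them, 6 were higher in both and 5 lower.

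Lists of stress and housekeeping genes had medians close to that of all genes. The pan-neuronal median was -0.02 in FF and 0.08 in FFPE, that of 35 proteasome genes 0.0 and 0.04, of 67 nuclear-encoded respiratory chain genes -0.08 and 0.05, and of 64 ribosomal protein genes -0.015 and 0.08. Of all genes on the array, 27.7% were higher in both preservations and 23.8% lower. Of 22 hypoxia-inducible genes 7 were higher in both (31.8%) and 6 lower (27.3%), and of 16 heat shock genes 6 and 6 (37.5% each). Of 34 immediate early genes, which neurons transcribe within minutes of activity, 18 were higher in both (52.9%) and 4 lower (11.8%). Their share of higher genes was above that of all genes, with medians of 0.1 and 0.045 and none called. Fos read 9.48 and 6.48 at 18 h, against 9.40 and 5.97 at 0 h, and Egr1 read 10.94 and 10.69, against 10.88 and 10.64. The cold-inducible RNA-binding gene Cirbp read 8.29 and 7.24 at 18 h, against 8.07 and 7.07 at 0 h, and Rbm3 differed by 0.11 in FF and -0.18 in FFPE. A difference that misses the threshold does not show that the levels were equal.

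**Figure D4:**
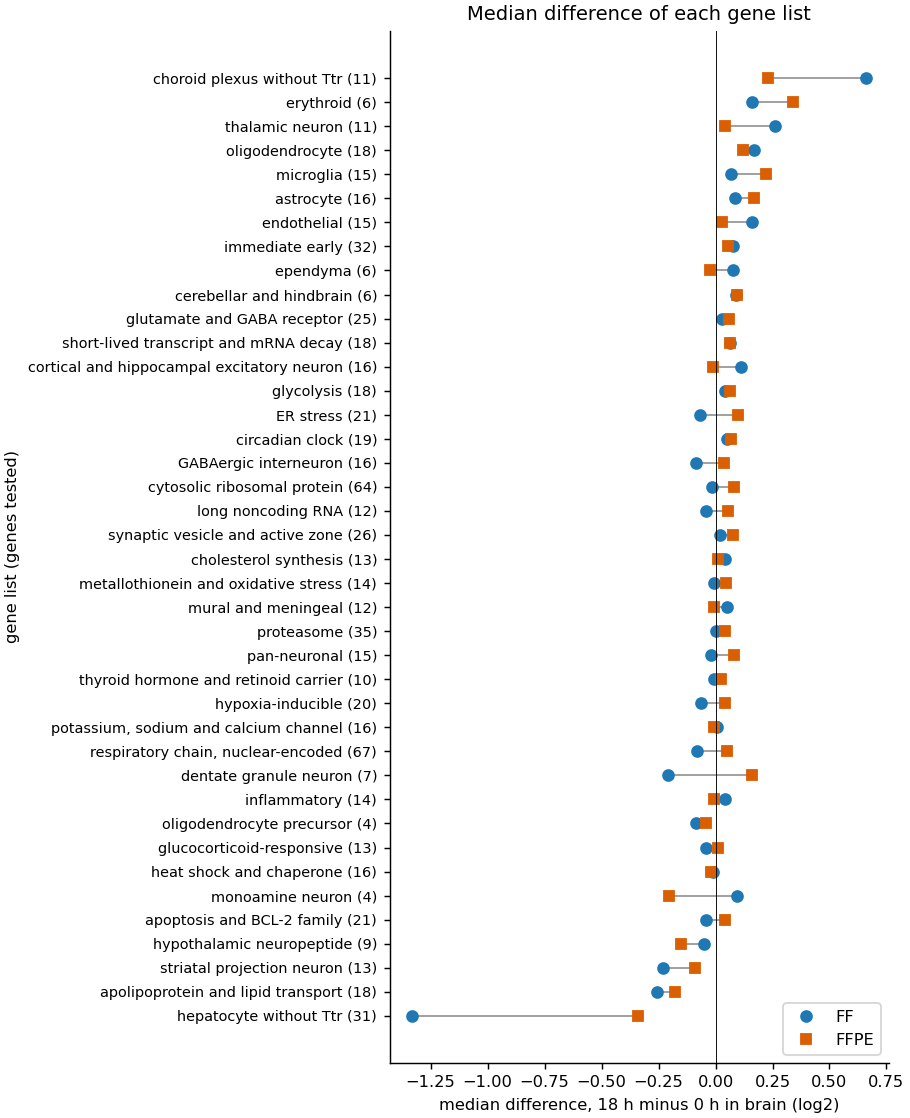
Median difference in log2 intensity, 18 h minus 0 h, of each gene list with at least 4 genes tested, in FF (circles) and FFPE (squares) brain. The 31 hepatocyte genes tested without Ttr lay at -1.33 in FF and -0.34 in FFPE, and most lists lay near 0.

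Set against the 3 h warm brain, the 18 h brain differed in 2 genes (0.0153% of 13073 by limma), both lower (0.0153%) and 0 higher (0.0%). At an unadjusted p under 0.05, 452 genes passed, 232 higher and 220 lower. Prkcd, a protein kinase C isoform abundant in the thalamus, read 5.71 in FF and 5.19 in FFPE at 18 h, against 7.40 and 6.54 at 3 h. It fell by 1.52 on the log2 scale (-1.52 ± 0.204, adjusted p = 0.0473, limma), and its 0 h values were 5.08 and 5.20. Its second probe set read 4.5 and 5.4 at 18 h, against 5.35 and 5.9 at 3 h. Plekhg1, a guanine nucleotide exchange factor, read 5.79 and 4.96 at 18 h, against 7.15 and 5.93 at 3 h (-1.165 ± 0.158, adjusted p = 0.0473, limma). The second Plekhg1 probe set read 4.01 and 4.74 at 18 h, against 4.5 and 4.77 at 3 h. Prkcd and Plekhg1 are both on the thalamic neuron list. The median of its 11 genes tested was -0.38 for 18 h minus 3 h and 0.66 for 3 h minus 0 h. The part of the dissected region was not tested. In both genes the 3 h arrays were the high ones and the 0 h and 18 h arrays of a preservation lay within 0.63 of each other. Both calls were lost without either 3 h or either 18 h brain array, and without either 0 h or either 3 h liver array, and 1 gene was called without either 0 h brain array. The comparisons with 0 h and with 3 h share the 18 h arrays.

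The change at 18 h differed between brain and liver for 586 genes (4.48%), 518 with the more positive change in brain (3.96%) and 68 with the more negative one (0.52%). For Ttr, the brain change exceeded the liver change by 4.93 ± 0.659 (adjusted p = 0.00309, limma), and for Mup3 the difference of changes was -3.62 ± 0.244 (adjusted p = 3.91e-05, limma). Mup3 read 12.90 in FF and 12.82 in FFPE liver at 18 h, against 12.98 and 12.81 at 0 h. These large differences lay in the brain arrays, whereas those of other genes lay in the liver. Saa1, an acute phase protein, read 4.08 and 4.14 in brain at 18 h, against 3.83 and 4.18 at 0 h, and 6.29 and 4.92 in liver at 18 h, against 8.48 and 7.38 at 0 h (2.43 ± 0.224, adjusted p = 0.000487, limma). Cirbp read 6.10 and 5.55 in liver at 18 h, against 7.09 and 7.01 at 0 h (brain minus liver 1.42 ± 0.225, adjusted p = 0.00653, limma).

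Proteasome genes had a median change of 0.015 in brain and -0.6 in liver, and 12 of the 35 were called with the more positive change in brain, where 3.96% of all genes were. Psmb7, a proteasome subunit, read 7.40 in FF and 8.71 in FFPE brain at 18 h, against 7.44 and 8.71 at 0 h, and 6.93 and 8.61 in liver at 18 h, against 8.21 and 10.17 at 0 h. Its difference of changes was 1.4 ± 0.197 (adjusted p = 0.0039, limma). The brain values of Psmb7 were level between the times and the liver values were lower at 18 h. Respiratory chain genes had medians of 0.0 in brain and -0.355 in liver with 4 of 67 called in that direction. Ribosomal protein genes had medians of 0.04 and -0.225 with 5 of 64, beside the same 3.96% of all genes. In liver the Gapdh 3' minus 5' difference was 1.14 in FF at 18 h, against 0.03 at 0 h, and 1.77 in FFPE at 18 h, against 1.04 at 0 h. The Actb difference in liver was 1.9 in FF at 18 h, against 1.09 at 0 h, but -0.18 in FFPE at 18 h, against -0.12 at 0 h. For both controls the 18 h and 0 h brain values given above lay close together within a preservation. The part of these measures in the brain and liver difference was not tested. Without 1 array the count lay between 48, without the FFPE brain 18 h array, and 1152, without the FF liver 18 h array. It was 74 without the FF brain 18 h array, 96 without the FF brain 0 h array, 113 without the FFPE brain 0 h array, 376 without the FFPE liver 0 h array, 390 without either 3 h brain array and 946 without the FFPE liver 18 h array.

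**Figure D5:**
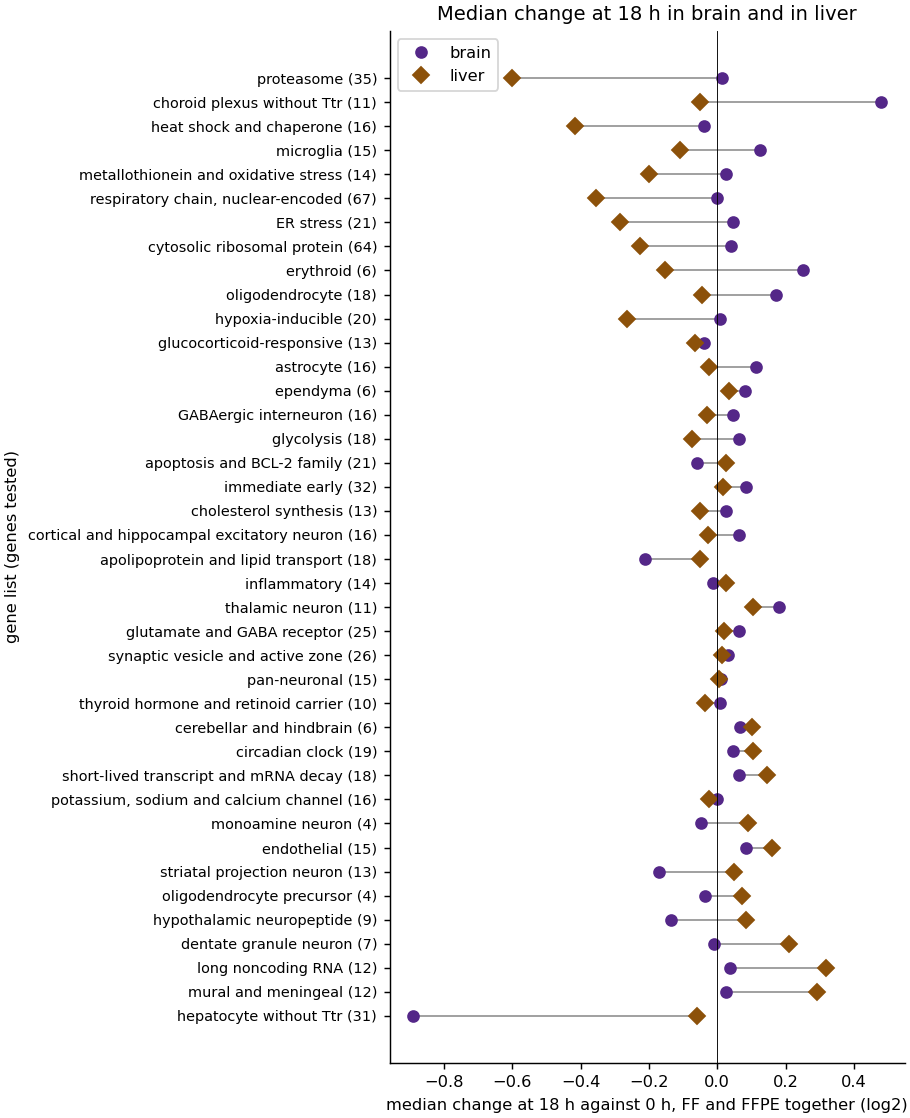
Median change in log2 intensity at 18 h against 0 h of each gene list, in brain (circles) and liver (diamonds), sorted by brain minus liver. Proteasome genes lay at 0.015 in brain and -0.6 in liver, and hepatocyte genes without Ttr at -0.89 in brain and -0.06 in liver.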

How the data were processed

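RNA was measured on Affymetrix MG-430 PM array strips. The authors deposited log2 values per probe set, and the submitters' processing notes name RMA and the Affymetrix Expression Console; versions, and whether all arrays were processed in 1 run, are not given in the sources used here. Of 45037 non-control probe sets, 28898 had 1 gene in the platform annotation, 551 several and 15588 none listed. A gene was represented by its probe set of highest mean. Of 17097 genes, 13073 reached the median of the array on 3 or more arrays and were tested. limma 3.58.1 (R 4.3.3) fitted all 12 arrays with 8 coefficients, the mean of each tissue and preservation and the 3 h and 18 h change of each tissue, and the spread is the disagreement of FF and FFPE about those changes. Tests were two-sided, and p-values were adjusted by Benjamini-Hochberg across the tested genes. As no label says that arrays came from separate animals, p-values measure only the spread between these arrays, whose number limits the precision. The code was tested on simulated data. Array medians lay between 4.65 and 4.89.

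Genes were named where they passed the test, by the 15 largest shared differences in each direction, the 8 largest in 1 preservation, the 5 largest called brain minus liver differences, and from 43 gene lists. The members and lists were chosen with earlier results of these data known. Alternatives changed the normalization, the choice of probe set, the filter, the arrays fitted, the estimate of the spread and the fold threshold.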

Additional observations from a re-analysis of the deposited data

Results flagged for a closer look

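The change at 18 h against 0 h differed between brain and liver, by limma's test of the difference itself, for 586 genes. Brain minus liver, the log2 difference of changes was 4.93 for Ttr, -3.62 for Mup3, -2.19 for Serpina1b, -2.1 for Fabp1, -1.84 for Apoa1 and -1.56 for Myh9. It was 2.43 for Saa1, 2.42 for Saa2, 2.24 for Rnase2a and 2.24 for Dct. For Saa1, Saa2, Rnase2a and Dct the liver values were lower at 18 h than at 0 h in both preservations. For Ttr, Mup3, Serpina1b, Fabp1 and Apoa1 the larger shift was in brain. Myh9, a non-muscle myosin, read 5.89 in FF and 4.72 in FFPE brain at 18 h, against 6.04 and 5.73 at 0 h, and 8.08 and 7.33 in liver at 18 h, against 7.29 and 6.16 at 0 h.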

How the results depend on the processing

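With 1 array per condition, FF and FFPE were the only repeats, and 4 residual degrees of freedom remained. No paired analysis was possible because the labels carry no replicate numbers; arrays were matched by preservation alone, which the fit already holds. The 4 genes called at 18 h against 0 h became 2 with the mean of a gene's probe sets, without the filter, with the 6 brain arrays alone or with robust eBayes, 8 of 29688 with every probe set on its own, 1 with genes above the median in the 4 brain arrays, and 0 with these 4 arrays alone (595 at an unadjusted p under 0.05, limma). The count was 1 without liver-high genes, an alternative chosen after seeing the data, which removes the 3 lower genes by its construction. Leaving out 1 array gave 2 to 31. Of the 586 brain minus liver calls, quantile normalization gave 330 (249 more positive, 81 more negative) and every probe set on its own 1253 (971 and 282), against 518 and 68, and leaving out 1 array gave 48 to 1152. The 2 calls at 18 h against 3 h became 0 with a common median, the mean of probe sets, no filter or the 6 brain arrays (443, 491, 623 and 759 at an unadjusted p under 0.05, limma), 1 with every probe set or genes above the median, and 0 to 2 without 1 array. The 50 genes 2-fold different in FF became 87 with every probe set, 5 above the median and 227 at 1.5-fold. The 18 in FFPE became 49 after quantile normalization (16 higher, 33 lower), 10 with the mean of probe sets, 42 with every probe set, 7 above the median and 273 at 1.5-fold. The 18 shared genes became 34 with every probe set, 5 above the median and 7 at 2-fold. The cause of these shifts was not tested, beyond the fewer genes or arrays that some alternatives use. The 0.0645 adjusted p of Ttr with the 6 brain arrays and 0.075 with robust eBayes missed the threshold, as did that of Apoa1 with the mean of probe sets (0.228), no filter (0.0545) or the 6 brain arrays (0.121), and that of Mup5 with quantile normalization (0.056), the mean of probe sets (0.228), every probe set (0.0623), no filter (0.29) or robust eBayes (0.057). The split of higher against lower genes moved too. It was 1 and 0 among calls above the median, against 1 and 3. With every probe set it was 4 and 4, in probe sets and not genes, as both Ttr probe sets and 4 with no single gene listed count there. In FFPE it was 4 and 3 above the median and 144 and 129 at 1.5-fold, against 4 and 14.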

Other observations

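When every probe set was fitted on its own, 4 of the 8 called had no single gene listed. Whether they detect genes named above is not known from the annotation used, so they do not stand for further genes. The 2 higher ones read close to the Ttr probe set used, which lay at 12.21 and 12.03 at 18 h, against 8.68 and 5.77 at 0 h. Probe set 1420465_PM_s_at read 9.95 in FF and 6.92 in FFPE brain at 18 h, against 12.84 and 11.54 at 0 h, and 1434110_PM_x_at read 4.71 and 4.66 at 18 h, against 8.06 and 7.58 at 0 h. Probe set 1454608_PM_x_at read 12.64 and 12.24 at 18 h, against 9.1 and 6.62 at 0 h, and 1459737_PM_s_at read 12.2 and 11.82, against 8.59 and 5.5. Both lower and both higher probe sets had the same direction in FF and FFPE.

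Some genes differed 2-fold in only 1 preservation, with no test of that difference. Gh, growth hormone, read 5.15 in FF brain at 18 h, against 3.69 at 0 h, and 6.02 in FFPE brain at 18 h, against 5.62 at 0 h. Pde6h, a cone phosphodiesterase subunit, read 4.95 in FFPE brain at 18 h, against 6.42 at 0 h, and 4.74 in FF brain at 18 h, against 4.85 at 0 h. Sema7a, a guidance molecule, read 8.43 in FFPE brain at 18 h, against 7.41 at 0 h, and 9.20 in FF at both times. The other probe sets of these genes were less than 2-fold apart. In FF and FFPE they differed by 0.38 and 0.06 for Pde6h and by 0.58 and 0.03 for Sema7a. Those of Gh differed by 0.11 to 0.75 in FF and by -0.01 to 0.44 in FFPE.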
